A study of Homo sapiens with 19 samples.

Results

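E2F1 binding was mapped by chromatin immunoprecipitation with sequencing (ChIP-seq) of the V5 tag in C4-2 prostate cancer cells, and the lists described here are those made under the LSD1 inhibitor GSK2879552 with and without doxycycline. The first list comes from cells labelled tetE2F1-Dox-GSK, which received doxycycline at 0.25 ug/ml for 3 days and then GSK2879552 at 50 uM for 24 hours. The second comes from cells labelled tetE2F1-GSK, which received GSK2879552 at 50 uM for 24 hours and no doxycycline. Both carry wild-type (WT) E2F1 under tetracycline control and were kept in medium with charcoal-stripped serum, which is low in androgens. Each group has 2 libraries and a single deposited interval list made from merged libraries, so the spread between libraries cannot be measured and no comparison below has a replicate check. The 2 lists hold 6679 of the 203381 intervals in the 10 lists of the series, with 3874 intervals in the doxycycline plus GSK2879552 list and 2805 in the GSK2879552 list. Members were split into gained intervals (in the doxycycline plus GSK2879552 list alone), lost intervals (in the GSK2879552 list alone) and shared intervals (overlapping by at least 1 base); these words describe presence in a list and not a measured change in binding. The RB lists used beside them come from untreated C4-2 cells (9146 intervals, 2 labelled libraries, with the name of a single library inside the list) and untreated VCaP cells (17026 intervals, 1 library), VCaP being another prostate cancer cell line. The other 6 V5 lists are also of 2 libraries each. Those of WT cells come from doxycycline at the same dose and time without inhibitor, and from untreated cells. The rest come from cells with the K185R mutant of E2F1, in which a lysine is replaced by arginine, in the same 4 conditions. Cells called untreated here are labelled Veh (vehicle), except those of the C4-2 RB list, which are labelled Ctrl (control).

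E2F1 is a transcription factor that activates genes for DNA replication and the cell cycle, and RB binds it and holds those genes down until RB is phosphorylated or lost. LSD1 (KDM1A) is a demethylase that removes methyl groups from lysines of histones and of some other proteins. Doxycycline is the usual switch for tetracycline-controlled genes, so this pair of lists asks where tagged E2F1 is found with the switch on while LSD1 is inhibited. The names inside the deposited files say siRB and siNTC where the labels say doxycycline and no doxycycline; groups here follow the labels, and which naming holds could not be decided. Whether cells without doxycycline made any tagged E2F1, and whether the line is a single clone, is not stated. Nearby genes and the DNA sequence of the intervals were not analysed here, because the intervals are on build hg19 and the reference tables used are on another build, so regions are given by hg19 position.

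Strength is given as the reads at the summit (the highest point) of an interval, solved from the authors' fold enrichment and p-value, and as the authors' fold enrichment over the local background. Genome-wide depth was estimated as the lowest common background of a list divided by its smallest interval width. Reads of the libraries themselves were not counted. The estimate was 0.810 reads per kilobase in the doxycycline plus GSK2879552 list and 0.716 in the GSK2879552 list, which makes the first 1.13 times as deep. The 8 V5 lists ranged up to 1.79 reads per kilobase, and the RB lists had 8.21 in C4-2 and 2.98 in VCaP. An interval is called high background where the local background was at least 10 times the lowest level of its list. This held for 424 intervals of the doxycycline plus GSK2879552 list (10.9%) and 347 of the GSK2879552 list (12.4%). The intervals are sums over few reads: 50.2% of the first list and 47.3% of the second had 5 or fewer reads at the summit.

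Most intervals of either list had no counterpart in the other. The gained intervals were 2968 of the 3874 with doxycycline plus GSK2879552 (76.6%), and the lost ones 1898 of the 2805 with GSK2879552 (67.7%). The shared part was 906 intervals of the first list (23.4%, 95% Wilson interval 22.1 to 24.7) and 907 of the second (32.3%, 30.6 to 34.1). The doxycycline plus GSK2879552 list was 1.38 times as long as the GSK2879552 list and covered 1.35 times as many bases. It was also the deeper list, and the part of depth in its length was not tested. It was longer on 22 of 23 chromosomes (1 to 22 and X), with a median ratio of 1.36. The exception was chromosome 13, with 83 intervals in the doxycycline plus GSK2879552 list and 84 in the GSK2879552 list, and the highest ratio was 1.69 on chromosome 15. At −log10 q of at least 5 the lists held 1111 and 951 intervals in the same order, 1.17 times as many with doxycycline.

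The rule of 1 base left few doubtful cases. The smallest overlap of a shared interval was 21 bases, and 7 of the 906 overlapped by under 50 bases. On the other side, 14 gained intervals (0.472%) lay within 200 bases of an interval of the GSK2879552 list, the nearest at 12 bases. Of the lost intervals, 11 (0.580%) lay within 200 bases of an interval of the doxycycline plus GSK2879552 list, the nearest at 9 bases. Summits of shared intervals, which overlap by definition, lay a median of 20 bases apart, and 87.1% lay within 100 bases of each other.

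Gained and lost intervals had similar median strength, and both medians were below those of shared intervals. Gained intervals had a median of 5 summit reads (quartiles 4 and 6) and a median fold enrichment of 5.04. Lost intervals also had a median of 5 summit reads (quartiles 4 and 6), with a median fold of 5.11. Shared intervals had a median of 12 reads in either list, with a median fold of 6.51 in the doxycycline plus GSK2879552 list and 6.49 in the GSK2879552 list. The smallest width in a list was common outside the shared class: 1915 gained intervals (64.5%) were 191 bases wide and 1310 lost ones (69.0%) were 194 bases wide, against 12.7% of shared intervals in the doxycycline plus GSK2879552 list. High background was found in 34.8% of the shared intervals of the doxycycline plus GSK2879552 list, but in 3.67% of gained and 1.90% of lost intervals. Without it, the shared intervals had a median of 9 reads in either list.

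The share of intervals found in the other list went up with summit reads. Among low-background intervals of the doxycycline plus GSK2879552 list, 24 of 971 (2.47%) with 3 or 4 reads had a counterpart in the GSK2879552 list, 128 of 333 (38.4%) with 8 or 9 reads, and 89 of 118 (75.4%, Wilson interval 66.9 to 82.3) with 15 or more. Among those of the GSK2879552 list, 20 of 623 (3.21%) with 3 or 4 reads had a counterpart with doxycycline, 128 of 276 (46.4%) with 8 or 9, and 81 of 89 (91.0%, 83.3 to 95.4) with 15 or more. At a C4-2 RB interval, weak intervals were also found in both lists. With 5 reads, these were 16 of 73 (21.9%) in the doxycycline plus GSK2879552 list, against 26 of 901 (2.89%) at no C4-2 RB interval. In the GSK2879552 list these numbers were 27 of 96 (28.1%) and 27 of 608 (4.44%). With 15 or more reads there were only 12 and 9 intervals without C4-2 RB in these lists, so those last points are loosely set. The increase holds without them.

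**Figure D1:**
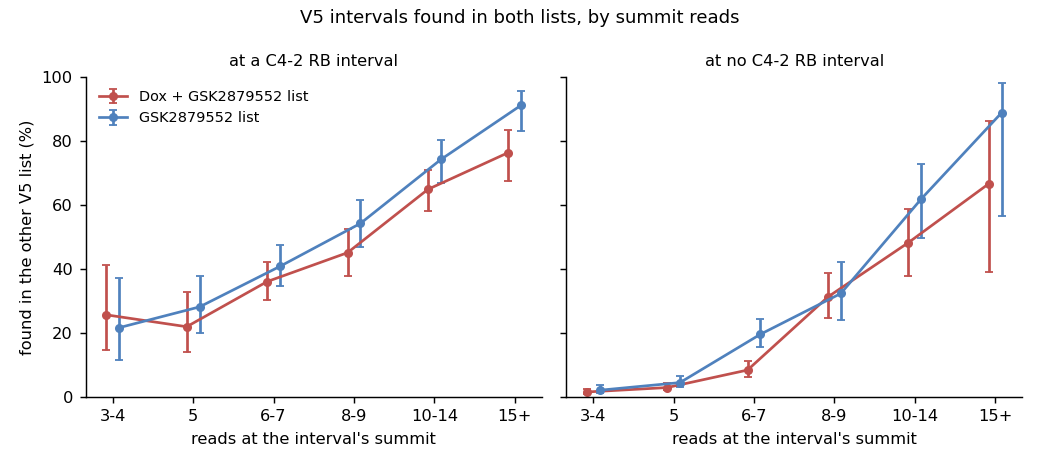
Share of low-background V5 intervals that had a counterpart in the other list (vertical axis, percent), by reads at the summit (horizontal axis), for the doxycycline plus GSK2879552 list and the GSK2879552 list; bars are 95% Wilson intervals, which cover counting error only. Intervals at a C4-2 RB interval (left) with 5 reads were shared in 21.9% and 28.1% of cases, those at none (right) in 2.89% and 4.44%.

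Shared intervals lay mostly at RB sites of C4-2 cells, while most gained and lost intervals did not. A C4-2 RB interval was met by 700 of the 906 shared intervals of the doxycycline plus GSK2879552 list (77.3%, Wilson interval 74.4 to 79.9). It was met by 509 gained intervals (17.1%, 15.8 to 18.5) and by 384 lost intervals (20.2%, 18.5 to 22.1). At low background the shares were 69.2% of 591 shared, 15.3% of 2859 gained and 19.3% of 1862 lost intervals. Over all intervals the gained share was thus 3.08 percentage points below the lost share, but this order turned with the cutoff. It was 0.76 points above at −log10 q of at least 5 in both lists, and 3.25 points above when the longer list was reduced to as many of its strongest intervals as the other holds. No direction is therefore given for gained against lost intervals at RB sites.

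Split by the RB lists of both cell lines, the low-background intervals gave the same picture. Sites with RB in C4-2 and VCaP were met by 315 of 2859 gained intervals (Wilson interval 9.92 to 12.2%), 236 of 1862 lost ones (11.2 to 14.3%) and 242 of 591 shared ones (37.1 to 45.0%). Sites with RB in C4-2 alone were met by 122 gained (4.27%), 124 lost (6.66%) and 167 shared intervals (28.3%). Sites with RB in VCaP alone were met by 114 gained (3.99%), 72 lost (3.87%) and 33 shared intervals (5.58%). No RB interval of either line was met by 80.7% of gained, 76.8% of lost and 25.2% of shared intervals. Within the gained class, intervals at sites with RB in both lines had a median of 7 reads and those at RB of C4-2 alone 8, against 5 for those at no RB site. Within the lost class the medians were 7, 7 and 5 in the same order.

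**Figure D2:**
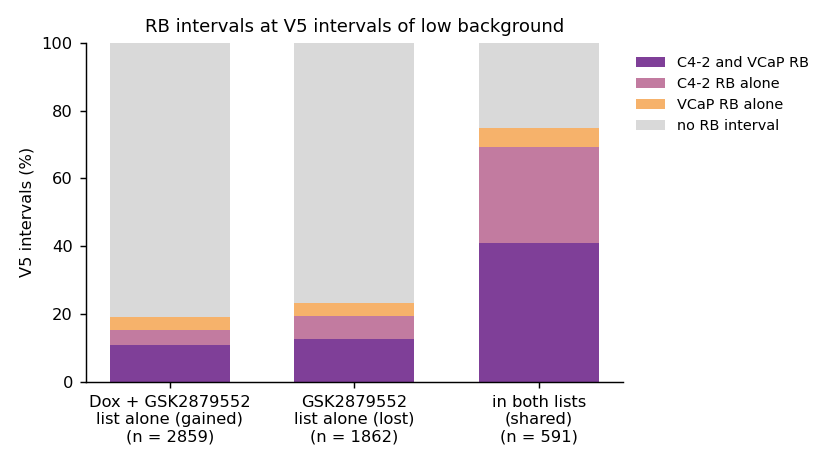
Share of low-background V5 intervals (vertical axis, percent) that overlapped an RB interval of C4-2 and VCaP, of C4-2 alone, of VCaP alone or of neither line, for gained, lost and shared intervals (shared ones taken from the doxycycline plus GSK2879552 list). No RB interval was met by 80.7% of gained, 76.8% of lost and 25.2% of shared intervals.

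Strong gained and lost intervals were at RB sites far more often than weak ones. Of gained low-background intervals, 29 of 947 with 3 or 4 reads (3.06%) met a C4-2 RB interval, 158 of 629 with 6 or 7 reads (25.1%), and 25 of 29 with 15 or more (86.2%). Of lost ones, 29 of 603 with 3 or 4 reads (4.81%) did so, 132 of 387 with 6 or 7 (34.1%), and 7 of 8 with 15 or more. The last point for lost intervals holds only 8 intervals, and with 10 to 14 reads the share was 62.4% of 117 gained and 63.6% of 66 lost intervals. Among intervals that overlapped a C4-2 RB interval, which by itself keeps the distance short, the median from the V5 summit to the RB summit was 49 bases for gained, 47 for lost and 40 for shared intervals of low background. It was 55 bases for gained intervals at RB of both lines and 32 for those at RB of C4-2 alone.

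The strongest gained intervals had a counterpart in several other lists. That on chromosome 17 at 43129240 to 43129568 had the highest −log10 q, 21.8, with a fold of 13.0 and 25 summit reads. It was also found with doxycycline alone (15 reads), in untreated WT cells (12), in K185R cells with doxycycline plus GSK2879552 (16) and with doxycycline (12). Neither RB list had an interval there. The local background was 6.42 times the lowest of its list, against a median of 1.36 for low-background gained intervals.

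The gained interval on chromosome 12 at 54673772 to 54674061 had a fold of 13.5 and 21 reads, and lay at a strong RB site with 35 reads in C4-2 and 81 in VCaP. Every list of the series but that of WT cells with GSK2879552 held an interval there, with 5 to 10 reads in the other 6 V5 lists. A region on chromosome 5 at 135802162 to 135802442 had 15 reads and a fold of 12.1, met RB in C4-2 alone, and also occurred with doxycycline alone (5 reads) and in untreated WT cells (7). Chromosome 1 at 9648788 to 9649030 had 16 reads and a fold of 11.4 at RB of both lines, and untreated WT cells had 12 reads there. Chromosome 17 at 6347529 to 6347788 had 15 reads and a fold of 11.3 at RB of both lines, with 6 reads with doxycycline alone and 5 in untreated WT cells. All 5 were thus present in untreated WT cells, which received no doxycycline.

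The strongest lost intervals likewise occurred elsewhere, and all 5 met a C4-2 RB interval. The first, chromosome 1 from 121458667 to 121459003, had 21 reads and a fold of 10.6. With doxycycline alone it had 20 reads, and in untreated WT cells 19. Its background was 7.68 times the lowest of its list, against a median of 1.40 for low-background lost intervals. A shared region of high background lies near it, from 121483967 to 121485517. Chromosome 16 at 14580785 to 14581108 had 13 reads and a fold of 10.5, against 8 reads with doxycycline alone and 6 in untreated WT cells. The interval on chromosome 19 at 10305215 to 10305490 had 15 reads and a fold of 10.2 at a strong RB site of both lines (53 reads in C4-2, 40 in VCaP), and among the other V5 lists only that of untreated WT cells had one there (9 reads). Chromosome X at 61871610 to 61871937 had 16 reads and a fold of 9.79, with 24 reads both with doxycycline alone and in untreated WT cells. Chromosome 2 at 171627297 to 171627579 had 13 reads and a fold of 9.95, and was found with doxycycline alone (5 reads) but not in untreated WT cells. So 4 of these 5 were present with doxycycline when GSK2879552 was left out.

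The 5 strongest shared intervals of low background were common to all 8 V5 lists and to the C4-2 RB list, and absent from the VCaP RB list. They were ranked by −log10 q in the doxycycline plus GSK2879552 list. Their local background there was 5.81 to 9.88 times the lowest of the list, under the cutoff of 10 but above the median of 2.59 for low-background shared intervals. The first, on chromosome 10 at 98561231 to 98561663, had 57 reads with doxycycline plus GSK2879552 and 57 with GSK2879552, with folds of 22.9 and 19.6. The other 6 V5 lists had 58 to 91 reads there and the C4-2 RB list 48. The next 4 all lay on chromosome 9, at 42415895 to 42416238, 70327324 to 70327673, 42818954 to 42819298 and 70076590 to 70076931. They had 45, 42, 36 and 29 reads with doxycycline plus GSK2879552, and 28, 27, 31 and 27 with GSK2879552. In the C4-2 RB list the same 4 regions had 62 to 79 reads.

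**Figure D3:**
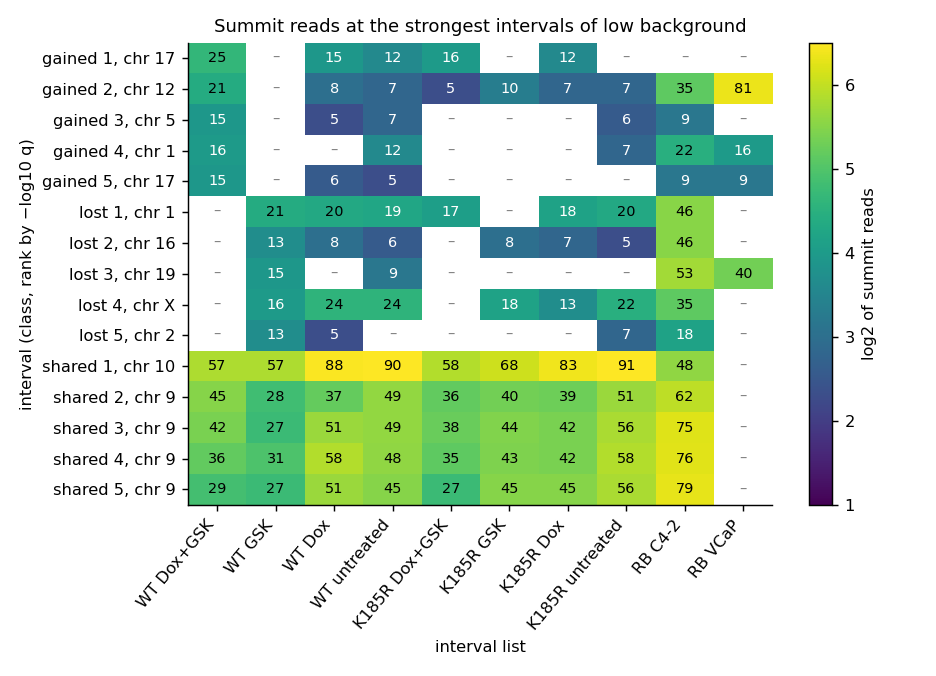
Reads at the summit (number in each cell, colour on a log2 scale) of the 5 strongest gained, lost and shared intervals of low background (rows) in the 10 interval lists (columns); a dash marks a list with no interval there. The 5 shared regions carry 27 to 91 reads in every V5 list and none in the VCaP RB list, while the gained and lost regions carry 5 to 25 reads in the V5 lists that hold them.

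Shared intervals at RB of both lines formed another set, of which the 5 with the highest −log10 q are given, chosen after their values were seen. The first lay on chromosome 4 at 83933991 to 83934253, with 24 reads with doxycycline plus GSK2879552 and 13 with GSK2879552. WT cells had 16 reads there with doxycycline alone and 12 untreated, and K185R cells 12 with GSK2879552 and 7 with doxycycline. Another, on chromosome 1 at 51434175 to 51434475, had 24 reads with doxycycline plus GSK2879552 and 18 with GSK2879552. Of the other V5 lists only that of untreated WT cells held it, with 6 reads, while RB had 37 reads in C4-2 and 20 in VCaP. The region on chromosome 8 at 141521882 to 141522196 had 26 reads with doxycycline plus GSK2879552 and 26 with GSK2879552, and 11 to 20 in the other 6 V5 lists. The region on chromosome 12 at 13153079 to 13153399 had 23 reads with doxycycline plus GSK2879552 and 27 with GSK2879552, and 8 to 16 in the other 6 V5 lists. The region on chromosome 14 at 105218934 to 105219407 had 24 reads with doxycycline plus GSK2879552 and 9 with GSK2879552, and 5 to 9 in the other 6 V5 lists. Reads were higher with doxycycline plus GSK2879552 at 3 of these 5 regions, equal at 1 and lower at 1. The regions were ranked by −log10 q in the doxycycline plus GSK2879552 list, which favours that list, so no direction is read from this count. Over all 586 shared pairs of low background in both lists, the median was 9 reads in either list.

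Most gained intervals at RB of both lines occurred in no other V5 list, and so did 55.6% of all gained intervals. At low background the numbers at RB of both lines were 217 of 315 gained intervals (68.9%, Wilson interval 63.6 to 73.7), 149 of 236 lost ones (63.1%, 56.8 to 69.0) and 68 of 242 shared ones (28.1%, 22.8 to 34.1). For gained intervals elsewhere the share was 72.8% of 114 at RB of VCaP alone, 56.6% of 2308 at no RB site and 32.0% of 122 at RB of C4-2 alone. The 217 gained intervals had a median of 7 reads, and the pair of highest −log10 q among them is given here, chosen after the values were seen. The interval on chromosome 7 at 151217125 to 151217450 had 17 reads and a fold of 10.5, at an RB site with 17 reads in C4-2 and 19 in VCaP. The interval on chromosome 16 at 29465576 to 29465906 had 16 reads and a fold of 10.6, with 23 RB reads in C4-2 and 25 in VCaP. That no other V5 list held an interval at these positions follows from how the pair was chosen, and is not a separate result. Over all 586 shared pairs of low background in both lists, summit reads were correlated across intervals (Spearman's rho 0.62, Pearson's r 0.68 on log2 reads), where all points share the same libraries and only intervals called in both lists enter.

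Gained and lost intervals recurred in the other V5 lists to a like extent. No other V5 list held 1649 of the gained (55.6%, Wilson interval 53.8 to 57.3) and 1034 of the lost intervals (54.5%, 52.2 to 56.7), against 118 of the 906 shared ones (13.0%). All 6 other V5 lists held 65 gained (2.19%), 29 lost (1.53%) and 419 shared intervals (46.2%). The V5 and RB lists together left 1308 gained (44.1%) and 770 lost intervals (40.6%) found nowhere else in the series. These had a median of 5 reads in both classes, and 5 intervals of each class reached 10 or more reads.

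**Figure D4:**
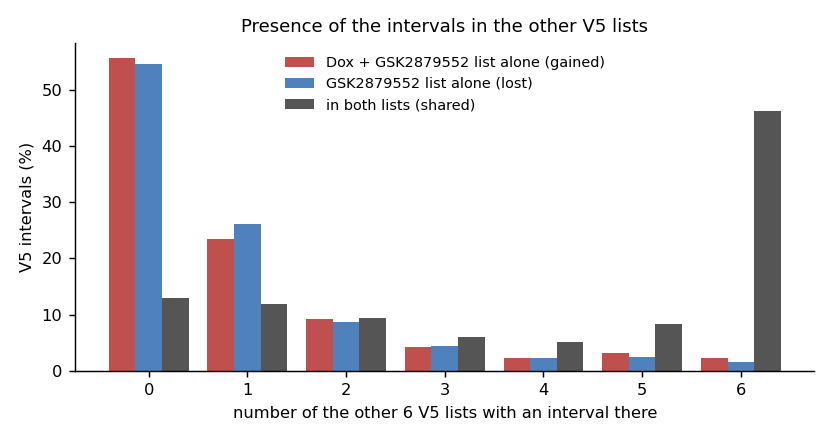
Share of gained, lost and shared V5 intervals (vertical axis, percent; shared ones from the doxycycline plus GSK2879552 list) by how many of the other 6 V5 lists had an interval at the same place (horizontal axis). No other V5 list held 55.6% of gained and 54.5% of lost intervals, and all 6 held 46.2% of shared ones.

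The same division was set against WT cells without the inhibitor, a comparison that shares no list with this one. Of the gained low-background intervals, 430 of 2859 (Wilson interval 13.8 to 16.4%) were in the doxycycline list and not in the untreated list, 214 (7.49%) in the untreated list alone, 203 (7.10%) in both and 2012 (70.4%) in neither. Of the lost ones, 292 of 1862 (14.1 to 17.4%) were in the doxycycline list alone, 157 (8.43%) in the untreated list alone, 117 (6.28%) in both and 1296 (69.6%) in neither. Intervals gained under the inhibitor were therefore found in the doxycycline list alone at about the same rate as lost ones. The doxycycline list, with 64025 intervals, is far longer than the untreated one, with 15099. Among all intervals, 447 of the 2968 gained under GSK2879552 (15.1%) overlapped one of the 60254 gained without it, and these were 0.740% of the longer set. Of the lost intervals, 156 of 1898 (8.22%) overlapped one of the 11324 lost without GSK2879552, or 1.38% of that set.

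At sites with RB in both lines the order of the WT lists without inhibitor was the other way. Of the 315 gained intervals at RB of both lines, 9 (2.86%) were in the doxycycline list alone and 54 (17.1%) in the untreated list alone. Of the 236 lost intervals at such sites, 18 (7.63%) were in the doxycycline list alone and 51 (21.6%) in the untreated list alone. The order was the same at RB of VCaP alone, with 6 (5.26%) and 15 (13.2%) of 114 gained intervals. For lost intervals at RB of VCaP alone the numbers were 3 (4.17%) and 10 (13.9%) of 72. At RB of C4-2 alone, 5 of 122 gained intervals (4.10%) were in the doxycycline list alone and 24 (19.7%) in the untreated list alone, while for lost ones the numbers were close, 17 (13.7%) and 16 (12.9%) of 124. At no RB site, 410 of 2308 gained (17.8%) and 254 of 1430 lost intervals (17.8%) were in the doxycycline list alone, and 121 (5.24%) and 80 (5.59%) in the untreated list alone. Of the 242 shared intervals at RB of both lines, 86 (35.5%) were in neither list without inhibitor. Of the 167 shared intervals at RB of C4-2 alone, 18 (10.8%) were in neither and 116 (69.5%) in both.

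Seen from the C4-2 RB list, slightly more sites carried a V5 interval with doxycycline. Of the 9146 RB intervals, 748 had a V5 interval in both lists (8.18%), 523 only in that with doxycycline plus GSK2879552 (5.72%) and 397 only in that with GSK2879552 (4.34%). The share with any V5 interval was 13.9% with doxycycline plus GSK2879552 and 12.5% with GSK2879552, a difference of 1.38 percentage points (95% interval over sites 0.73 to 2.03, counting error only). The direction held under the 6 other settings tried, down to 0.33 points with the 1000 strongest intervals of each V5 list, where the interval of -0.16 to 0.81 includes 0. The deeper list had the higher share, and the part of depth in the difference was not tested. Among 5233 low-background RB sites also found in VCaP, 317 had V5 with doxycycline plus GSK2879552 alone (6.06%) and 242 with GSK2879552 alone (4.62%). Among 3476 found in C4-2 alone these numbers were 168 (4.83%) and 147 (4.23%). At the 437 RB sites of high background, 38 had V5 with doxycycline plus GSK2879552 alone (8.70%), 8 with GSK2879552 alone (1.83%) and 170 in both (38.9%).

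V5 intervals were found at strong RB sites most often, in either list. Low-background RB sites with V5 in both lists had a median RB fold enrichment of 7.77 and 22 RB reads. Sites with V5 in the doxycycline plus GSK2879552 list alone had a median fold of 6.59 and 17 reads. Sites with V5 in the GSK2879552 list alone had 6.21 and 15, and those with neither 5.62 and 13. RB sites were then put into 5 bins of equal size by their own −log10 q. In the strongest bin of sites found in both lines, 253 of 1047 (24.2%, Wilson interval 21.7 to 26.8) carried V5 with doxycycline plus GSK2879552 and 215 (20.5%, 18.2 to 23.1) with GSK2879552. In the weakest bin these were 50 (4.78%) and 49 (4.68%) of 1047. For RB sites of C4-2 alone, the strongest bin of 695 had 272 (39.1%) with doxycycline plus GSK2879552 and 245 (35.3%) with GSK2879552, and the weakest bin of 696 had 26 (3.74%) and 27 (3.88%).

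**Figure D5:**
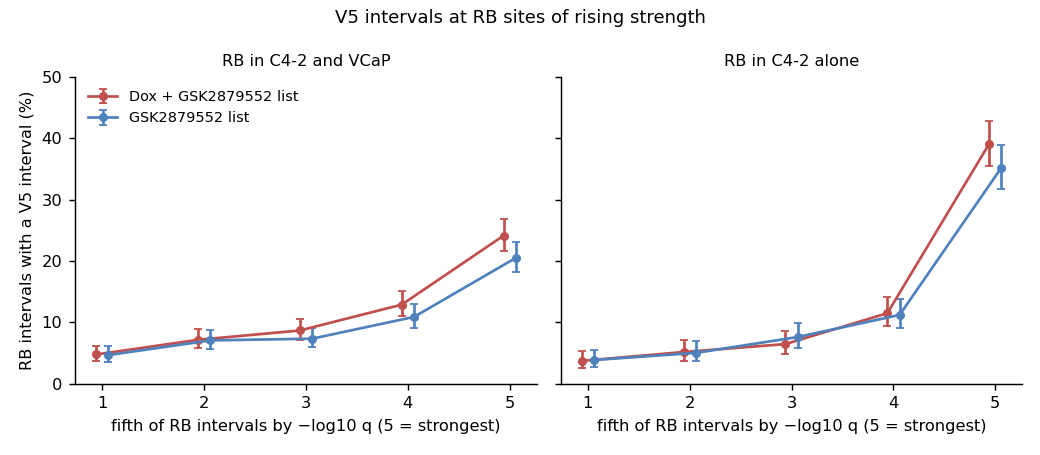
Share of low-background C4-2 RB intervals with a V5 interval (vertical axis, percent) in 5 equal bins of RB strength by −log10 q, weakest first (horizontal axis), in the doxycycline plus GSK2879552 list and the GSK2879552 list, for RB sites also found in VCaP (left) and in C4-2 alone (right); bars are 95% Wilson intervals over sites. The share goes from 4.78% and 4.68% in the weakest to 24.2% and 20.5% in the strongest bin of sites with RB in both lines.

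RB sites with V5 in a single list had a V5 interval without inhibitor more often than sites with neither, but less often than sites with both. Of the 485 low-background RB sites with V5 in the doxycycline plus GSK2879552 list alone, 177 (36.5%) had an interval in untreated WT cells and 121 (24.9%) with doxycycline alone. Of the 389 with V5 in the GSK2879552 list alone, 118 (30.3%) had one in untreated WT cells and 88 (22.6%) with doxycycline alone. Of the 7257 without V5 in either list, 298 (4.11%) and 222 (3.06%) did. Of the 578 with V5 in both lists, 437 (75.6%) and 375 (64.9%) did. RB was also found in VCaP at 65.4% of the 485 sites, 62.2% of the 389, 60.5% of the 7257 and 49.7% of the 578.

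Other pairs gave these values for the same division, and the differences between pairs were not tested. In WT cells without inhibitor, C4-2 RB sites were met by 0.380% of intervals gained with doxycycline, 3.94% of lost and 20.6% of shared ones. In K185R cells under GSK2879552 these shares were 1.71% of 2756 gained, 3.35% of 9154 lost and 62.1% of shared intervals. Chromosome 19 is rich in genes and chromosome 18 is poor in them. At C4-2 RB sites, low-background gained intervals on chromosomes 19 and 18 numbered 18 and 4 of 437. The lost ones numbered 7 and 4 of 360, and the shared ones of the doxycycline plus GSK2879552 list 11 and 9 of 409. At no C4-2 RB site the gained ones numbered 48 on chromosome 19 and 68 on 18, of 2422. The lost ones there numbered 37 and 41 of 1502, and the shared ones 5 and 6 of 182. These differences were not tested.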

How the data were processed

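Both compared groups, and the other 8 used beside them, are single interval lists that the authors deposited as MACS2 output. Tools listed in the submitters' processing notes are MACS2 2.1.0, BWA 0.7.9a, SAMtools 1.2 and FastQC 0.11.9, with build hg19; settings and control libraries are not stated there. Interval names say that V5 libraries were merged. The deposited columns are a score, the fold enrichment (a linear ratio over the local background), −log10 of the p-value and q-value, and the summit position. Fold and score values belong to single intervals. Fold values of different lists are set side by side above and were not tested.

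Summit reads and local background were solved from the deposited fold and −log10 p (MACS2 adds 1 read to both terms and uses a Poisson p); recomputed −log10 p differed by at most 0.00016. This step and the overlaps were tested on simulated data and against bedtools 2.31.1. Depth is the lowest background that 5 or more intervals have in common, divided by the smallest width. Calculations used Python 3.11.15, pandas 2.3.3 and scipy 1.17.1. Shares carry 95% Wilson intervals, which cover counting error over intervals only; reads without molecular identifiers are not independent molecules. No test was possible with 1 list per group. Regions named are the 5 of highest −log10 q in each class at low background, plus 2 of high background; others are marked. Gene lists and promoter counts planned were not run, since gene positions on hg19 were not used here. Members and rules were chosen with earlier results of these data known.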

Additional observations from a re-analysis of the deposited data

Results flagged for a closer look

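Doxycycline under GSK2879552 went with a longer V5 list in WT cells and a shorter one in K185R cells. The ratio of the doxycycline plus GSK2879552 list to the GSK2879552 list was 1.38 in WT and 0.353 in K185R. Each ratio rests on 1 list a side, and the difference between them was not tested. In K185R the list with doxycycline was also the shallower one, at 0.838 reads per kilobase against 1.02, while in WT it was the deeper one, at 0.810 against 0.716.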

How the results depend on the processing

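No paired analysis was possible because each group is a single merged list, and no library could be left out. Alternatives on gene and promoter distance were not run. The ratio of list lengths stayed above 1 under all 3 settings tried (1.17 to 1.40). The share of the GSK2879552 list that was shared, 32.3% as reported, was 58.9% at −log10 q of at least 5, 23.9% without high background, 55.7% among the 1000 strongest, 29.3% at 50% overlap of both intervals and 28.2% by summits within 100 bases. In the same settings the gained share at RB sites, 17.1% as reported, was 54.7%, 15.4%, 59.0%, 12.4% and 14.8%, and 23.9% with lists of equal length. The lost share, 20.2% as reported, was 54.0% at −log10 q of at least 5, 53.3% among the 1000 strongest, 14.6% at 50% overlap and 17.2% by summits. Gained minus lost was -3.08 points as reported and turned to 0.76 at −log10 q of at least 5, 3.25 with lists of equal length and 5.78 among the 1000 strongest; the cause was not tested. The difference in RB sites with V5 was 0.70 points with lists of equal length and 0.33 among the 1000 strongest (-0.16 to 0.81). Median summit reads at −log10 q of at least 5 were 10 for gained, 9 for lost, and 23 and 21 for shared intervals with doxycycline plus GSK2879552 and with GSK2879552; with high-background V5 and RB intervals removed before the overlaps were made anew, the shared medians were 9 and 8. Chosen after seeing the data, a cutoff of −log10 q of at least 5 for the list counted alone gave 69.6% shared, 51.5% and 50.9% at RB sites and a difference of 0.60. Leaving out intervals found in all 6 other V5 lists gave 20.6% shared. The other values stayed within their intervals. At 5 reads a summit, absence from a list does not show absence of binding.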

Other observations

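The 2 strongest shared high-background regions carried similar summit reads in all 8 V5 lists. The first, chromosome 1 from 121483967 to 121485517, had 353 summit reads and a fold of 9.51 with doxycycline plus GSK2879552, and 363 reads with GSK2879552. The other 6 V5 lists had 302 to 355 reads there, although their depths ranged from 0.838 to 1.79 reads per kilobase. The next, on chromosome 3 at 196625513 to 196625908, had 140 and 136 reads in the same order, and 137 to 156 in the other 6 lists. Among gained intervals of high background, the strongest lay on chromosome 2 at 89872047 to 89872274, with 75 reads on a background 120.4 times the lowest of its list, and all 6 other V5 lists held it with 68 to 89 reads. The strongest lost one lay on chromosome 4 at 49158357 to 49158650, with 48 reads, and the other 6 V5 lists had 47 to 76 reads there. The second of each class lay on chromosome 21 at 10778708 to 10778957 (gained, 30 reads) and chromosome 14 at 19001854 to 19002172 (lost, 25 reads). Both were held by 5 of the other 6 V5 lists, and not by that of K185R cells with doxycycline plus GSK2879552.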
